A study of Mus musculus with 6 samples.

Results

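The pentose phosphate pathway genes described here are G6pdx, Pgls and Pgd of the oxidative arm and Rpia, Rpe, Tkt and Taldo1 of the non-oxidative arm. The rule names them by their place in the pathway, with earlier results of these data known, and all 7 had a row among the 11922 genes of the count table. RNA was sequenced from splenic CD8+ T cells of C57BL6/J mice, which were activated with anti-CD3/anti-CD28 beads and collected on day 7. One group of 3 libraries received water (vehicle) and another group of 3 received 0.25 mM aminooxyacetic acid (AOA), an inhibitor of enzymes that use pyridoxal phosphate, the active form of vitamin B6, as cofactor. Both groups were kept in recombinant human interleukin-2 at 100 units per ml throughout, with the beads present for 72 hours and a further 4 days of expansion. Donor mice 1, 2 and 3 each gave a culture to both groups, so libraries are named by group and donor. The age and sex of the mice are not in the labels, and the cells were a bulk culture purified only by the CD8 surface protein. Over all genes vehicle 2 stood apart from its group, at -44.2 on the second principal component of log2 CPM (counts scaled to library size) where vehicle 1 and 3 were at 21.9 and 19.4. In counts AOA 1 also stood apart, with a chi-square per gene of 71.1 and 64.6 against AOA 2 and 3. Between AOA 2 and 3 it was 10.5.

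The pathway branches from glycolysis at phosphorylated glucose. Its oxidative arm makes NADPH, which feeds reductive synthesis and the recycling of glutathione and thioredoxin, and ends in a pentose phosphate. Its non-oxidative arm interconverts pentose phosphates with glycolytic intermediates in both directions, so that ribose can be made for nucleotides with or without NADPH. Transketolase depends on thiamine diphosphate, and none of the 7 enzymes is a pyridoxal phosphate enzyme. Dividing T cells are known to draw on the pathway for both products.

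With AOA, 4 of the 7 genes were called higher and 0 were called lower, by edgeR (quasi-likelihood, Benjamini-Hochberg over 11759 genes, threshold 0.05). Over all tested genes 26.2% were called higher and 26.8% lower. The genes called were Tkt, Rpe, G6pdx and Taldo1, with log2 fold changes of AOA relative to vehicle of 0.66, 0.59, 0.59 and 0.36. Rpia and Pgd were at 0.55 and 0.37 and were not called, and Pgls was at -0.058. The median of the 7 was 0.55, beside -0.025 over all tested genes and 0.94 over all genes called higher. At an unadjusted p under 0.05 the counts were 5 higher and 0 lower, a threshold at which the share over all genes was not computed. DESeq2 called 5 of the 7 higher (26.8% of all genes), limma voom 5 (26.5%) and edgeR with the donor as a replicate block 4 (26.6%), and each called 0 of the 7 lower (26.8%, 26.6% and 26.9%). The 4 called with the block were another set, with Rpia and without Taldo1. In size, 43.9% of all tested genes had an absolute log2 fold change at least as large as that of Tkt. The count of 4 moved with single libraries: it was 1 without vehicle 1 or without vehicle 3, 2 without AOA 2 or without AOA 3, 5 without AOA 1 and 6 without vehicle 2. Tkt was the only gene of the 7 called in each of 15 alternatives.

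**Figure D1:**
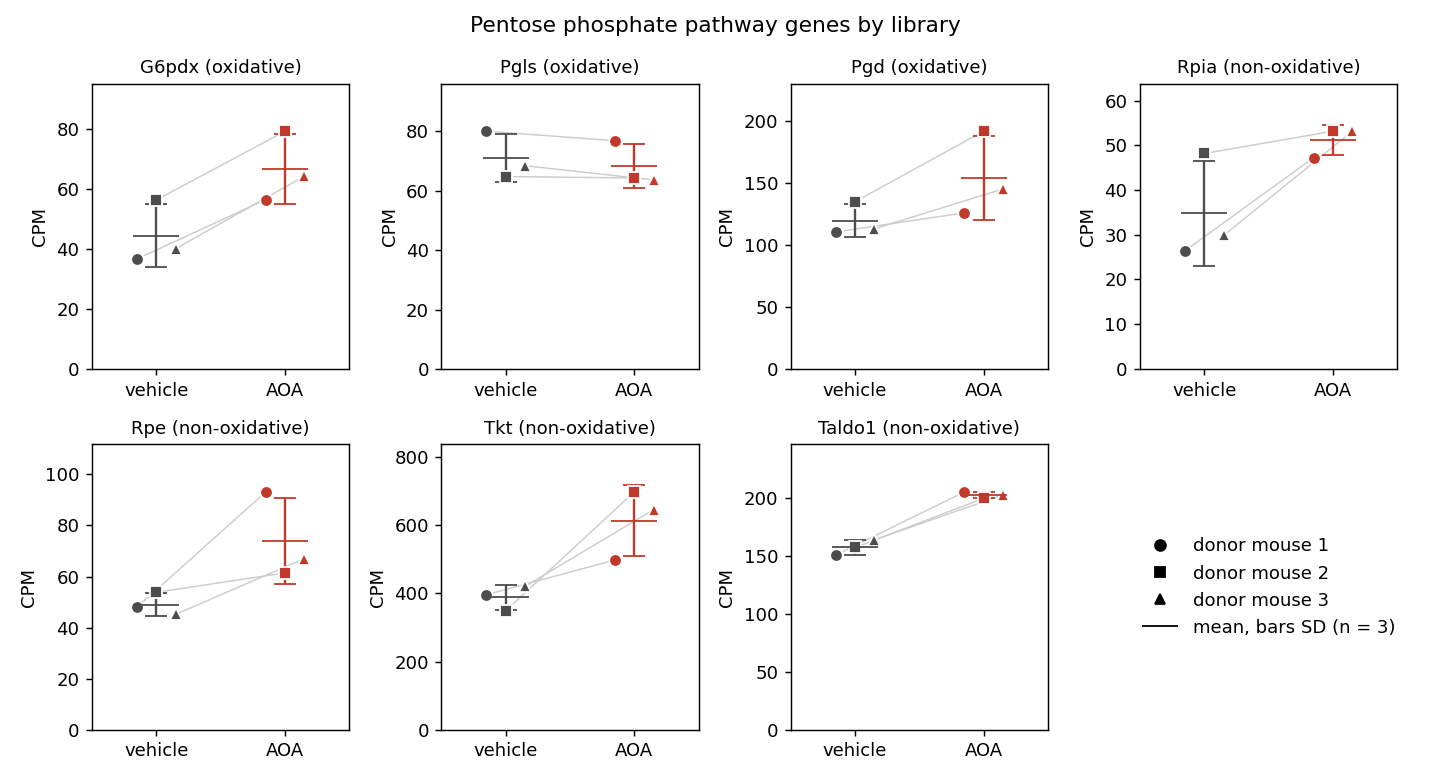
CPM of each gene in the 6 libraries, with 1 panel per gene and axes from 0. Points are libraries shaped by donor mouse, grey lines join the vehicle and AOA cultures of a donor, and horizontal marks with bars give the mean and SD of 3 libraries. The AOA points of Tkt, Rpe, G6pdx and Taldo1 lie above all vehicle points, for G6pdx by a margin of 56.5 against 56.4 CPM, while those of Pgls, Pgd and Rpia overlap.

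Total counts were 12881962 to 18934869 per library with vehicle and 18696114 to 21997078 with AOA, and every member had at least 333 counts in each library. Genes listed as markers of other cells moved with treatment, where 26.2% of all tested genes were called higher and 26.8% lower. Of 4 CD4 T cell markers 3 were lower, with a summed level of 158 to 210 CPM with vehicle and 33.0 to 54.3 CPM with AOA. Of 5 myeloid markers 3 had a row and 1 was tested, Itgam, which was lower, and the sum was 40.8 to 54.2 and 0.873 to 3.33 CPM, while Lyz2 did not exceed 1.16 CPM and was at 0 in vehicle 1 and 3. Of 4 NK markers 3 had a row, 2 were tested and 1, Klrb1c, was lower, and Ncr1 was at 0 in vehicle 1 and 3. The sums were 145 to 308 and 128 to 213 CPM. Most of each sum was Eomes, which is not particular to NK cells and averaged 151 CPM with vehicle and 155 CPM with AOA. Of 5 B cell markers 4 were tested and 1, Cd79b, was higher, with sums of 12.6 to 16.6 and 22.6 to 30.7 CPM. Of 6 markers of CD8 T cells 5 were tested and 2, Cd8a and Cd8b1, were higher, with sums of 2908 to 3737 and 3994 to 4644 CPM, and the call of Cd8b1 was lost without AOA 3 (0.57). Of 5 erythroid markers 0 had a row, so none was analysed. The part of cell mixture in the changes of the 7 genes was not tested. Fewer cells of a type, less RNA per cell and a change in the CD8 T cells themselves cannot be told apart in bulk samples.

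Sequence upstream of the start site is shown for Tkt, the gene called in every alternative, G6pdx, the entry enzyme, and Pgls, the gene closest to no change, to set the largest, an intermediate and the smallest log2 fold change of the edgeR fit side by side. The stretches are the 250 bases before the annotated start in RefSeq on GRCm38.p6, read 5′ to 3′ on the strand of the gene. They lie at chr14:30548881-30549130 on the plus strand for Tkt, chrX:74428881-74429130 on the minus strand for G6pdx and chr8:71591934-71592183 on the plus strand for Pgls. Capitals mark matches on either strand to the motifs searched.
Tkt: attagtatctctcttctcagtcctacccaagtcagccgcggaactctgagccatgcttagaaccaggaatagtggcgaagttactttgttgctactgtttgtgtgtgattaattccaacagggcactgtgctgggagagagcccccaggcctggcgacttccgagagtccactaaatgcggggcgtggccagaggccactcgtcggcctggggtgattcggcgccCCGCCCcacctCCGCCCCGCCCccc
G6pdx: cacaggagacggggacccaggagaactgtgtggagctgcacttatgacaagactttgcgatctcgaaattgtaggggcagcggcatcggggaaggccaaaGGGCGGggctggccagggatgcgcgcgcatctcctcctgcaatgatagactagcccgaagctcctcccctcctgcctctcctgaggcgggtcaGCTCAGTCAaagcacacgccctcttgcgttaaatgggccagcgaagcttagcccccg
Pgls: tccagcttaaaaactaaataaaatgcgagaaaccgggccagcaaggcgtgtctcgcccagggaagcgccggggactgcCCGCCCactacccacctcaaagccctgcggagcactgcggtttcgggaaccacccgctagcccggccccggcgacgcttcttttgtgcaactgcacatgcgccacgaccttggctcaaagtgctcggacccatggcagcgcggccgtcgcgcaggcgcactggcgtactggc

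The motifs searched on both strands were the GC box GGGCGG, the CCAAT box CCAAT, the E-box CACGTG and the core of the antioxidant response element, TGACNNNGC, the site named for the NRF2 factor. All 7 genes had at least 1 GC box in this window, beside 32.7% of 32851 windows of the same length in the RefSeq table. For Rpe the window in that table ends at 66700830, inside the RefSeq gene, which begins at 66700797, and its GC boxes begin 121 and 13 bases before the start that the table uses. In GENCODE the Tkt gene begins at 30548359 and the G6pdx gene at 74429194, so the stretches printed for both lie inside the gene in that annotation, as do the last bases of that for Pgls, which begins at 71592176. Tkt had 3, beginning 25, 14 and 9 bases before the start, of which the last pair share a base, and Pgls had 1, at 172 bases. GC content was 59.6% for Tkt, 61.2% for G6pdx and 64.4% for Pgls, beside a median of 52.4%. G6pdx was the only member with the antioxidant response core, at 57 bases, a match found in 10.2% of windows. Pgd had 2 CCAAT boxes and Taldo1 had 1, a motif in 33.8% of windows. No E-box was found in the 7 windows, beside 6.02% of all windows. These matches are descriptions of the letters in the window.

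G6pdx (Entrez gene 14381, chromosome X from 74409483 to 74428880, minus strand) encodes glucose phosphate dehydrogenase, which catalyses the first and rate-limiting step and yields NADPH. It overlaps Ikbkg on the other strand, so reads of the overlap are uncertain. Its level was 36.7, 56.4 and 40.2 CPM in vehicle 1, 2 and 3 and 56.5, 79.4 and 64.3 CPM in AOA 1, 2 and 3. The groups did not overlap, although AOA 1 and vehicle 2 were nearly equal. Within donors the log2 difference was alike, at 0.62, 0.49 and 0.68 for donors 1, 2 and 3. The fitted difference was 0.59 log2 units (SE 0.19; edgeR, adjusted p = 0.0301). The call was lost when vehicle 1, vehicle 3, AOA 2 or AOA 3 was left out, with log2 fold changes of 0.49, 0.54, 0.45 and 0.62.

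Pgls (Entrez gene 66171, chromosome 8 from 71592184 to 71596267, plus strand) encodes the lactonase that opens the product of the first step. Its level was 80.1, 64.8 and 68.5 CPM with vehicle and 76.9, 64.3 and 63.7 CPM with AOA, in donor order. The groups overlapped, and the libraries of donor 1 were the highest of each group. Its fitted log2 difference was -0.058, with a 95% interval from -0.38 to 0.26 (edgeR, adjusted p = 0.753). The interval leaves out a rise as large as the fitted value of G6pdx, Rpe or Tkt, but the difference between genes was not tested. Without vehicle 1 the value was 0.057, and with the trend in gene length removed it was -0.23 (edgeR, adjusted p = 0.122), a larger size than that of Taldo1 in the same fit (0.21). On the same strand the GENCODE gene body overlaps that of Fam129c, so reads of the overlap are uncertain.

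Pgd (Entrez gene 110208, chromosome 4 from 149149991 to 149166705, minus strand) encodes phosphogluconate dehydrogenase, which yields the other NADPH of the arm and releases the pentose phosphate. Its level was 110, 135 and 113 CPM with vehicle and 126, 192 and 145 CPM with AOA. AOA 1 lay below vehicle 2, while within each donor AOA was higher, by 0.19, 0.51 and 0.36 log2 units. Its fitted log2 difference was 0.37, with a 95% interval from -0.027 to 0.76 (edgeR, adjusted p = 0.105). It passed the threshold without vehicle 2 (0.50; edgeR, adjusted p = 0.0432) and without AOA 1 (0.50; edgeR, adjusted p = 0.0403), and was at 0.19 without AOA 2 (edgeR, adjusted p = 0.395). Of the oxidative arm 1 of 3 genes was called higher, a share near the 26.2% of all tested genes.

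Rpia (Entrez gene 19895, chromosome 6 from 70765720 to 70792175, minus strand) encodes the isomerase that turns ribulose phosphate into ribose phosphate, the form used for nucleotides. Its level was 26.4, 48.2 and 29.9 CPM with vehicle and 47.3, 53.2 and 53.2 CPM with AOA. Vehicle 2 stood among the AOA libraries, and donor 2 had a log2 difference of 0.14 where donors 1 and 3 had 0.84 and 0.83. AOA exceeded vehicle by 0.55 log2 units in the fit (SE 0.22; edgeR, adjusted p = 0.0545), just above the threshold, so it was not called. With the donor as a replicate block it was 0.60 (edgeR, adjusted p = 0.0147), and without vehicle 2 it was 0.90 (edgeR, adjusted p = 6.32e-04). DESeq2 and limma voom also called it, at adjusted p of 0.0366 and 0.0355.

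Rpe (Entrez gene 66646, chromosome 1 from 66700797 to 66719805, plus strand) encodes the epimerase that makes xylulose phosphate, the donor substrate of transketolase. It overlaps Kansl1l on the other strand, with the same uncertainty. Its level was 48.0, 53.8 and 45.2 CPM with vehicle and 93.1, 61.4 and 67.0 CPM with AOA. AOA 1 was far above the other AOA libraries, yet all 3 lay above the vehicle libraries. On the log2 scale the fitted difference was 0.59 (SE 0.17; edgeR, adjusted p = 0.0180). The call was lost without vehicle 1 (0.60; edgeR, adjusted p = 0.0515) and without vehicle 3 (0.56; edgeR, adjusted p = 0.0569). Without AOA 1 the value was 0.39 (edgeR, adjusted p = 0.0330).

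Tkt (Entrez gene 21881, chromosome 14 from 30549131 to 30574724, plus strand) encodes transketolase, which moves carbon units between sugar phosphates and links the arm to glycolysis. Its level was 396, 349 and 421 CPM with vehicle and 498, 698 and 646 CPM with AOA. The groups did not overlap, and AOA 1 was the lowest of its group. CPM averaged 389 ± 36.3 with vehicle and 614 ± 104 with AOA (SD, n = 3). The log2 fold change, 0.66 (SE 0.17; edgeR, adjusted p = 0.0100), was the largest of the 7, and over the 15 alternatives it lay between 0.56 and 0.79, with adjusted p up to 0.0416.

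Taldo1 (Entrez gene 21351, chromosome 7 from 141392160 to 141402976, plus strand) encodes transaldolase, which completes the return of carbon to glycolysis. Its level was 151, 157 and 164 CPM with vehicle and 205, 200 and 203 CPM with AOA. The groups did not overlap, with an SD of 6.50 CPM in vehicle and 2.77 CPM in AOA. The fitted difference was 0.36 log2 units (SE 0.12; edgeR, adjusted p = 0.0288). The call was lost with the donor as a replicate block (edgeR, adjusted p = 0.0629) and without vehicle 1, vehicle 3, AOA 2 or AOA 3, at values from 0.36 to 0.42. With the trend in gene length removed the value was 0.21 (edgeR, adjusted p = 0.151).

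**Figure D2:**
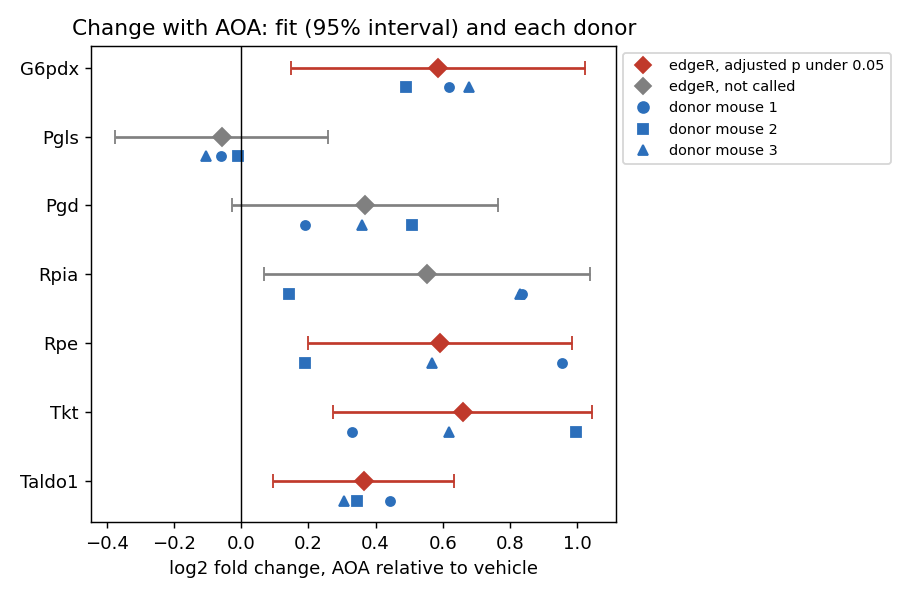
Log2 fold change of each gene with AOA relative to vehicle. Diamonds are the edgeR fit with its 95% interval, red where the adjusted p was under 0.05 and grey otherwise, and blue marks below them are the log2 differences within donors 1, 2 and 3. All 3 donors lie above 0 for each gene except Pgls, whose donors lie between -0.10 and -0.010.

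The genes did not follow the donors in the same order. Donor 1 had the largest log2 difference of Rpe (0.95, against 0.19 and 0.57 in donors 2 and 3) and the smallest of Tkt (0.33, against 1.00 and 0.62). On CPM, AOA 1 was the AOA library lowest for G6pdx, Pgd, Rpia and Tkt and highest for Rpe, Pgls and Taldo1. On the same scale, vehicle 2 was the vehicle library highest for G6pdx, Pgd, Rpia and Rpe and lowest for Tkt and Pgls. Without vehicle 2 the log2 fold changes of G6pdx, Pgls and Pgd were 0.83, -0.085 and 0.50, and those of Rpia, Rpe, Tkt and Taldo1 were 0.90, 0.70, 0.62 and 0.40. In all, the AOA libraries lay above the vehicle libraries for 4 of 7 genes and below for 0, beside 31.0% above and 31.1% below over all tested genes.

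Levels were compared between genes per length, as TPM (counts per base of the deposited gene length, scaled to the same sum in each library), a scale that holds within a library and rests on one length per gene. In the vehicle libraries Taldo1 and Tkt were highest, at 255 ± 13.4 and 248 ± 14.3 TPM (SD, n = 3), and did not differ beyond their spread. Pgls and Pgd followed at 126 ± 11.8 and 111 ± 17.0 TPM (SD, n = 3). Rpia, Rpe and G6pdx were lowest, at 41.0 ± 15.5, 37.3 ± 4.83 and 35.3 ± 9.81 TPM (SD, n = 3), also within their spread. The gene of the rate-limiting enzyme was thus among the 3 lowest in every library.

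The same tiers were seen with AOA. Tkt was at 388 ± 98.7 TPM and Taldo1 at 320 ± 28.2 TPM (SD, n = 3), and Tkt was the higher of the pair in AOA 2 and 3 but not in AOA 1. Pgd was at 141 ± 41.6 TPM and Pgls at 117 ± 1.06 TPM (SD, n = 3). Rpia, Rpe and G6pdx were at 58.6 ± 9.41, 53.9 ± 6.61 and 52.0 ± 13.1 TPM (SD, n = 3). The ratio of G6pdx to Pgls, neighbours in the oxidative arm, was 0.205, 0.388 and 0.262 with vehicle and 0.328, 0.551 and 0.451 with AOA, and was higher with AOA within each donor, with no test made.

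**Figure D3:**
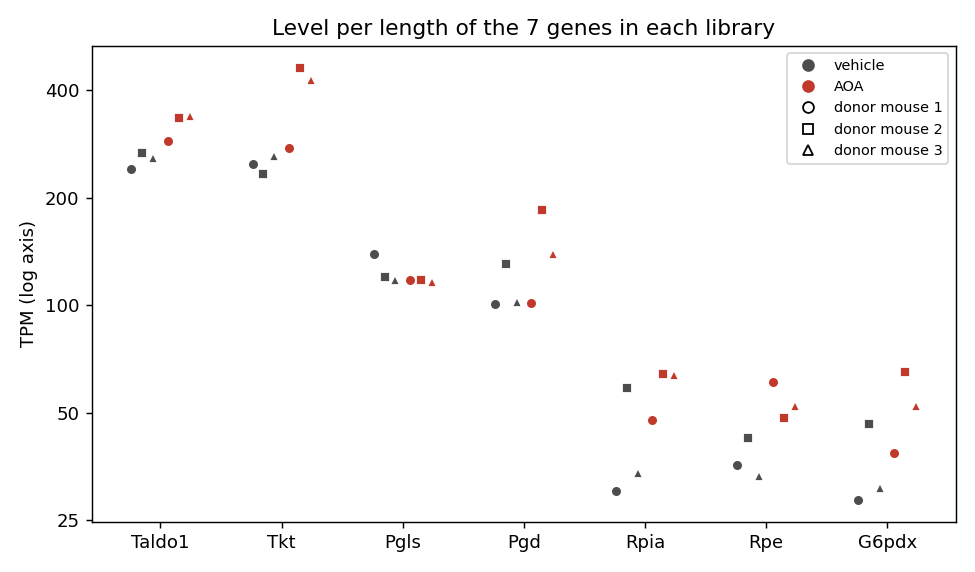
TPM of the 7 genes in each library on a log axis, ordered by their vehicle mean. Points are libraries, grey for vehicle and red for AOA, shaped by donor. Taldo1 and Tkt form the upper tier (233 to 462 TPM), Pgls and Pgd the middle (101 to 184 TPM), and Rpia, Rpe and G6pdx the lower (28.5 to 64.9 TPM).

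Summed per length, the oxidative arm stood at 269, 297 and 251 TPM with vehicle and 258, 367 and 307 TPM with AOA. The non-oxidative arm stood at 555, 601 and 588 TPM with vehicle and 673, 910 and 880 TPM with AOA. On TPM the oxidative sums overlapped between the groups and the non-oxidative sums did not. On CPM neither arm overlapped, and the oxidative sums were 221 to 256 CPM with vehicle and 259 to 335 CPM with AOA. The log2 ratio of oxidative to non-oxidative was -1.05, -1.02 and -1.23 with vehicle and -1.38, -1.31 and -1.52 with AOA, so the AOA libraries were all lower. With CPM sums, a scale added after the data were seen, the closest libraries were vehicle 3 at -1.57 and AOA 2 at -1.59. The mean difference on TPM was -0.31, between -0.37 and -0.25 with each library left out. No test was made of it, since the arms were compared with the genes' values known. Together the 7 genes took 0.0830% to 0.0895% of all counts with vehicle and 0.109% to 0.136% with AOA.

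Genes on either side of the pathway were taken from lists grouped by pathway role. Their counts stand beside 26.2% of all tested genes called higher and 26.8% called lower. For the synthesis of PRPP (phosphoribosyl pyrophosphate), the activated ribose phosphate from which nucleotides are built, 4 of 5 tested genes were higher and 0 lower, and the median difference was 1.01 log2 units. The 0 lower held at an unadjusted p under 0.05, in DESeq2 and in limma voom. Prps2, a PRPP synthetase, stood at 83.7, 79.4 and 98.3 CPM with vehicle and 172, 171 and 183 CPM with AOA (log2 fold change 1.01, SE 0.13; edgeR, adjusted p = 3.12e-04). Prps1, another synthetase, rose by a log2 fold change of 1.15 and Prpsap2, which encodes an associated protein, by 1.24. Prps1 has a close copy, Prps1l3, with which it can share reads, so their separate levels are uncertain.

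Of 7 tested genes for paralogues and side enzymes, 1 was higher and 2 lower, beside 26.2% and 26.8% of all tested genes. H6pd encodes the counterpart of the oxidative enzymes inside the endoplasmic reticulum. Its level was 68.0, 56.6 and 59.0 CPM with vehicle and 33.5, 38.6 and 36.6 CPM with AOA (log2 fold change -0.75, SE 0.13; edgeR, adjusted p = 0.00150), opposite in sign to G6pdx. Shpk, the kinase that makes sedoheptulose phosphate, fell as well (-1.13), and Dera, which splits deoxyribose phosphate, rose (1.16). G6pd2, Tktl1 and Tktl2 had no row in the count table and were not analysed.

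At the junction with glycolysis 4 of 12 tested genes were higher and 4 lower, beside 26.2% and 26.8% of all tested genes. The median was 0.13. Tpi1, triose phosphate isomerase, averaged 104 ± 25.2 CPM with vehicle and 323 ± 24.6 CPM with AOA (SD, n = 3), higher by 1.63 log2 units (SE 0.19; edgeR, adjusted p = 1.52e-04). Tigar, whose product lowers a glycolytic activator and is known to favour the pathway, rose by 0.87, and Hk2, a hexokinase, by 0.83, and without vehicle 2 these were 1.25 and 1.28. Aldoc and Aldoa, aldolases, and Gpi1, the isomerase that competes with G6pdx for its substrate, fell by 2.43, 0.90 and 0.71 on the log2 scale. The call of Tigar was lost without vehicle 1 (0.74) or AOA 1 (0.81), and that of Hk2 without vehicle 1, vehicle 3, AOA 2 or AOA 3 (0.68 to 0.81). Those of Aldoa (-0.86 to -0.71) and Gpi1 (-0.74 to -0.57) were lost without vehicle 1, vehicle 3 or AOA 1, and that of Gpi1 also without AOA 3. The count of lower genes was 2 without vehicle 1, vehicle 3 or AOA 1, and that of higher genes was 2 without vehicle 1.

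Of 10 tested genes listed as other NADPH sources, 4 were higher and 1 lower, beside 26.2% and 26.8% of all tested genes. The median was 0.34. The list is wide, as it holds NAD kinases and enzymes such as Mthfd2 and Me2 that also work with NAD. The count is therefore no measure of genes that make NADPH. Mthfd1, a folate enzyme, rose by 2.44 (3.19 without vehicle 2), Mthfd2, its mitochondrial relative, by 0.94, and Me2, a mitochondrial malic enzyme, by 0.66. The count of higher genes was 3 with the donor as a replicate block and 3 to 5 with each library left out. The lower gene was not called without vehicle 1, vehicle 3, AOA 1 or AOA 3, which left 0, and without vehicle 2 there were 2. Of 10 genes of enzymes that use NADPH, 6 were higher and 0 lower, beside the same 26.2% and 26.8%. The median was 0.52. For the 0 lower the count was 1 at an unadjusted p under 0.05, in DESeq2, with the replicate block and without vehicle 2, and 0 in limma voom. Txnrd1, thioredoxin reductase, and Fasn, fatty acid synthase, rose by 0.96 and 0.91.

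Of 10 genes reported elsewhere to act on the pathway or its genes, 2 were higher and 5 lower. The shares of all tested genes were 26.2% and 26.8%. Hif1a, the hypoxia factor, Sirt2, a deacetylase, and Bach1, a repressor at antioxidant response elements, had log2 fold changes of -1.41, -1.19 and -0.94. Trp53 rose by 0.72 and Myc by 0.45, and the call of Myc was lost without vehicle 1, vehicle 3, AOA 2 or AOA 3 (0.36 to 0.54), which left 1 gene higher. Nfe2l2, which encodes NRF2, was at 0.33 (SE 0.17; edgeR, adjusted p = 0.128) and was chosen for mention after its value was seen. No list was tested as a whole, and all of these share the same control libraries as the 7 genes.

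**Figure D4:**
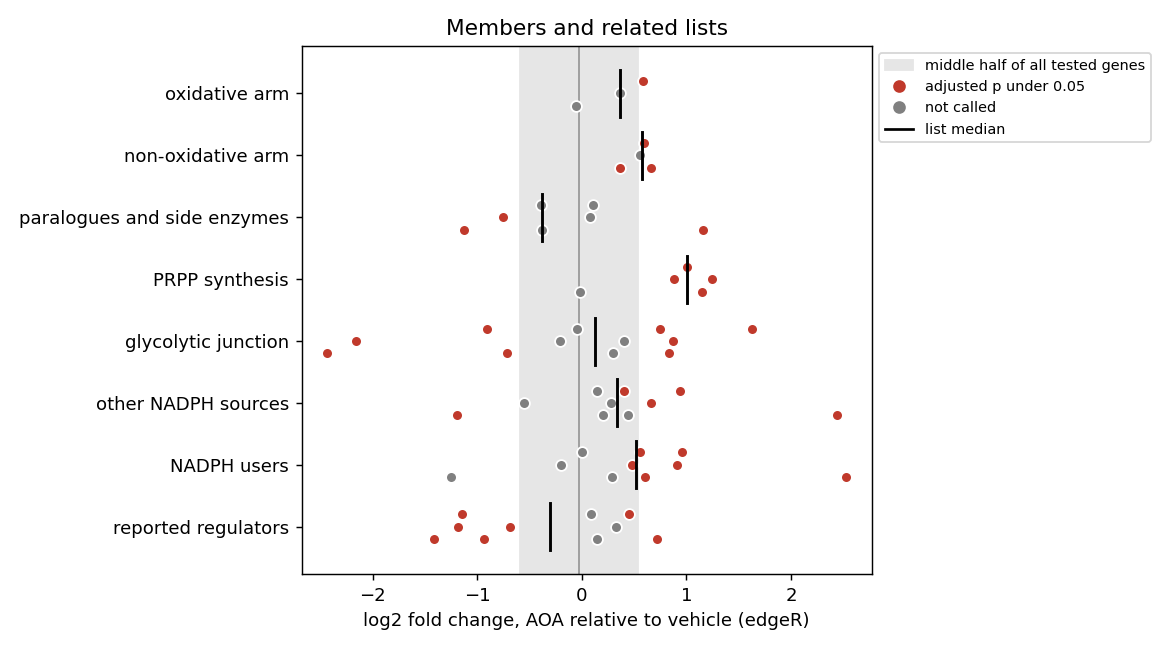
Log2 fold change with AOA of each tested gene, with a line of points for each arm of the pathway and each related list. Red points had an adjusted p under 0.05 in edgeR, grey points did not, black ticks are list medians, and the shaded band spans the 25th to 75th percentile of all tested genes (-0.59 to 0.54). The medians are 0.37 for the 3 genes of the oxidative arm, 0.57 for the 4 of the non-oxidative arm and 1.01 for PRPP synthesis. The band describes single genes and is no reference for a median.

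For likeness, the tested genes outside the 7 with the highest Pearson r of log2 CPM over the 6 libraries were taken, 2 for each gene. They were Fam185a and Pigk for G6pdx, Tial1 and Rnaset2b for Pgls, Clptm1 and Tsc22d1 for Pgd, and Zfp518b and Aaas for Rpia. For Rpe they were Lin52 and Mettl5, for Tkt Mapk1ip1l and Map7, and for Taldo1 Poc1a and Rad54b. The r lay between 0.984 and 0.999. The libraries share donors and treatment, and many genes came close, from 43 genes with r of at least 0.9 for Pgls to 2134 for Taldo1.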

How the data were processed

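RNA of CD8+ T cells from 3 donor mice, cultured with vehicle or AOA, was sequenced as stranded mRNA libraries. Paired-end reads were mapped with STAR under its default options. The authors deposited, for each gene, the raw count of uniquely mapped reads, a symbol and a length. The submitters' processing notes name mm10, STAR, featureCounts and DESeq2. Their versions, the annotation, the strand setting and any gene filter are not given in sources used here. A gene that overlaps another on the opposite strand may therefore share its reads.

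Groups were compared with edgeR 4.0.16 under R 4.3.3. Genes that passed filterByExpr (minimum count 10) were scaled by TMM and compared by robust quasi-likelihood fits without a donor term, with Benjamini-Hochberg adjustment over 11759 genes. The study used DESeq2, here an alternative (1.42.0), as was limma voom (3.58.1). CPM used TMM library sizes, log2 CPM a prior count of 2, and TPM the deposited lengths over all 11922 rows. Total counts per library were 12881962 to 21997078. Counts varied between libraries of one group beyond counting error. Chi-square per gene was 10.0 for vehicle 1 and 3 and 10.5 for AOA 2 and 3. For vehicle 2 it was 55.1 and 59.7 against vehicle 1 and 3. For AOA 1 it was 71.1 and 64.6 against AOA 2 and 3. For 3 against 3 libraries the smallest two-sided exact permutation p is 0.1, so only the model over all genes was used. Steps were tested on simulated data.

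The labels give the same mouse to both groups, which pairs the libraries. Deviations from group means correlated across genes with r of 0.0868, 0.189 and 0.194 in donors 1, 2 and 3. Other alternatives were median-of-ratios factors, total counts only, no filter, at least 10 CPM in 3 libraries, a trend with gene length removed by lowess (span 0.3) with and without the donor block, and each library left out. Members and lists were chosen with earlier results of these data known. Genes named from other lists were the called genes of largest change, up to 3 per direction, with at least 10 CPM in the higher group, any paralogue of a member, and the 2 genes of highest r per member. A gene that this rule chose is not reported here. Lyz2, Ncr1 and Eomes fall outside it and were named after their values were seen. Lyz2 and Ncr1 were at 0 in some libraries, and Eomes made up most of a sum. Rows were matched by symbol. Upstream sequence and gene positions came from RefSeq tables of GRCm38.p6, in which all 7 genes matched, and overlaps from GENCODE vM21.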

Additional observations from a re-analysis of the deposited data

How the results depend on the processing

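The alternatives with all libraries kept the direction of all 7 genes, and the number called lower stayed at 0 in all 15 alternatives. Rpia passed the threshold in DESeq2 (0.56), in limma voom (0.60), with no filter on low counts (0.58), with the replicate block (0.60) and with the length trend removed and the replicate block (0.54). Taldo1 no longer passed with the replicate block (0.37), with the length trend removed (0.21) or with both (0.21). The donor block changed no other call of the 7, and with it 3126 genes were called higher and 3166 lower, beside 3086 and 3147 without it. With each library left out, the log2 fold change ranged from 0.45 to 0.83 for G6pdx, from 0.19 to 0.50 for Pgd, from 0.39 to 0.71 for Rpe, from 0.41 to 0.90 for Rpia, from 0.36 to 0.42 for Taldo1, from 0.56 to 0.79 for Tkt and from -0.15 to 0.057 for Pgls, whose sign turned without vehicle 1 (0.057). The number of the 7 called higher ranged from 1 to 6, and all genes called higher from 2519 to 3499. Fewer samples enter those fits, and the cause of each change was not tested. Every member had at least 333 counts in each library, and 3 libraries per group left wide intervals, from 0.27 to 1.05 for Tkt.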
